A study of Homo sapiens and Mus musculus with 4 samples.

Results

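The genes described here are 10 transcription factor oncogenes of T-cell leukaemia: TAL1, LYL1, LMO1, LMO2, TLX1, TLX3, HHEX, MYB, GFI1 and MEF2C. They were chosen by symbol, with earlier results of these data known. All 10 were found among the 32738 human genes of the expression table, and all 10 mouse genes of the same symbol among its 27998 mouse genes, so the members made up 20 of 60736 genes. The data were bulk mRNA libraries of 4 lymphocyte lines, made as reference profiles for a benchmark of single-cell methods, with 1 library per line. The human lines were Jurkat, a T-cell leukaemia line studied as CD4+ T cells and grown in RPMI medium, and TALL104, a cytotoxic T-cell leukaemia line studied as CD8+ T cells and grown in IMDM medium with added interleukin. The mouse lines were EL4, a T-cell lymphoma line grown in RPMI medium, and IVA12, a B-lineage hybridoma grown in DMEM medium. No line carried an engineered allele or a treatment in the labels. The lines of each species were grown in different media, so line and culture cannot be told apart.

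TAL1 and LYL1 are basic helix-loop-helix (bHLH) factors that bind DNA as dimers with the E proteins TCF3, TCF4 and TCF12. The LIM-only proteins LMO1 and LMO2 do not bind DNA and join such dimers to LDB1 and GATA factors, while the ID proteins hold E proteins in dimers that cannot bind DNA. TLX1, TLX3 and HHEX are homeobox factors, MYB is an activator of haematopoietic progenitors, GFI1 is a zinc finger repressor, and MEF2C is a MADS box factor used in B cells and muscle. Most of these genes are switched off as normal thymocytes mature or are never on in that lineage, and T-cell leukaemias are grouped by which of them they express.

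Levels are given as FPKM, read or fragment counts scaled by gene length and by the assigned reads of the library, so that genes can be compared with each other. Reads were recovered from the FPKM steps, and the library totals behind them were 34783047 reads for Jurkat, 28345951 for TALL104, 32149319 for EL4 and 25286728 for IVA12. Intervals are exact Poisson 95% intervals of those reads, taken as independent. With no replicates they cover counting error only, and no test between lines was possible. In a bulk library, fewer cells expressing a gene and less of its RNA per cell cannot be told apart. Of 9 T-cell markers, all 9 reached 1 FPKM in Jurkat and EL4. TALL104 had 8 of them. IVA12 had 3, Cd2 at 9.99, Cd28 at 1.23 and Cd3g at 1.15 FPKM. In IVA12 Cd3d stood at 0.0299 FPKM and Jchain, of antibody-secreting cells, at 1289 FPKM. Summed, these markers came to 879 to 1104 FPKM in the human lines, 740 in EL4 and 13.3 in IVA12. The B-lineage list summed to 16.7 and 30.4 FPKM in Jurkat and TALL104, 0.701 in EL4 and 1499 in IVA12, in which Cd79a stayed below 0.1 FPKM. Of its 5 markers, 1 reached 1 FPKM in Jurkat, 2 in TALL104, none in EL4 and 3 in IVA12, where Jchain gave most of the sum. CD79A gave 16.5 FPKM of the Jurkat sum and 24.6 of the TALL104 sum. No erythroid or myeloid marker that was found reached 1 FPKM in any library. Found were 5 of 5 of each list in human, and 3 erythroid and 4 myeloid markers of 5 in mouse. Of 4 endothelial markers in mouse, 1 reached 1 FPKM in each line, and of 3 in human none did. Mitochondrially encoded genes held 20.6% of the human FPKM of TALL104 and 14.9% of those of Jurkat. Their share of mouse FPKM was 5.04% for EL4 and 4.79% for IVA12.

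A gene was counted as detected at 1 FPKM. In Jurkat 4 of 10 members were detected (TAL1, LMO1, MYB and GFI1), against 33.2% of all human genes. TALL104 had 2 (LMO2 and GFI1), against 33.1%. EL4 had 3 (Lyl1, Myb and Gfi1), against 34.3% of all mouse genes, and IVA12 had 4 (Lyl1, Myb, Hhex and Mef2c), against 35.0%. No member was detected in all 4 lines. GFI1 and MYB were each detected in 3 of the 4, GFI1 in all but IVA12 and MYB in all but TALL104. The share of all genes detected in 3 or in all 4 lines was not computed, so these counts only describe the members.

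**Figure D1:**
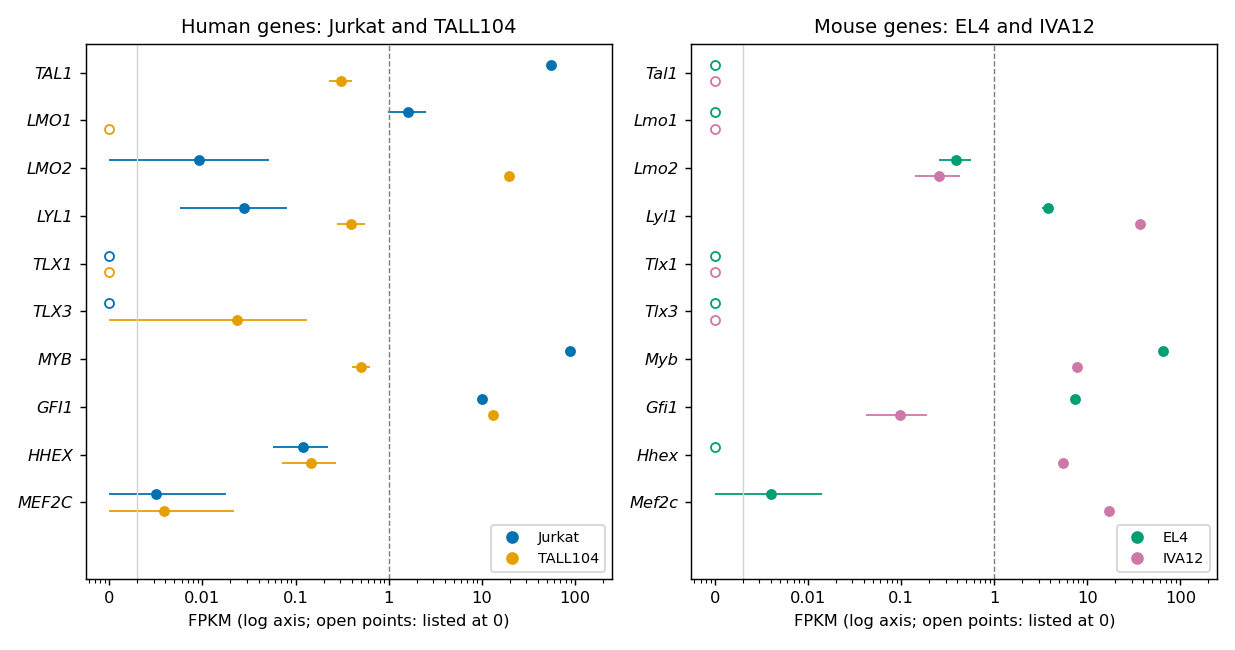
FPKM of the 10 members in the human lines (left) and of the mouse genes in the mouse lines (right), on a log axis with values listed at 0 as open points at the left edge. Bars are 95% Poisson counting intervals, cut at the left edge, and the dashed line marks 1 FPKM. TAL1 and MYB lay near 55.9 and 88.8 FPKM in Jurkat and below 1 in TALL104, where LMO2 lay at 19.5, while Mef2c and Hhex were on the right only for IVA12.

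Lines of a species were compared by the ratio of FPKM + 1, and a member was called where it was past 1.5-fold. Between Jurkat and TALL104, 4 of 10 members were past 1.5-fold, against 25.3% of all human genes. TAL1, LMO1 and MYB were higher in Jurkat, 3 of 10 against 13.8% of all genes in that direction. LMO2 alone was higher in TALL104, 1 of 10 against 11.4%. TAL1 and MYB also met the size that the study's methods set for signature genes (over 50 FPKM in a line and a natural log ratio over 3), 2 of 10 members against 0.278% of human genes. Because the members were chosen with earlier results of these data known, such shares are descriptions and do not measure an excess. Between EL4 and IVA12, 5 of 10 members were past 1.5-fold, against 21.0% of all mouse genes. Myb and Gfi1 were higher in EL4, 2 of 10 against 9.75%, and Lyl1, Hhex and Mef2c were higher in IVA12, 3 of 10 against 11.2%. No mouse member met the signature size, which 0.332% of mouse genes did. The median log2 ratio of the members was -0.02 for human and 0.00 for mouse, beside 0 over all genes of each species.

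**Figure D2:**
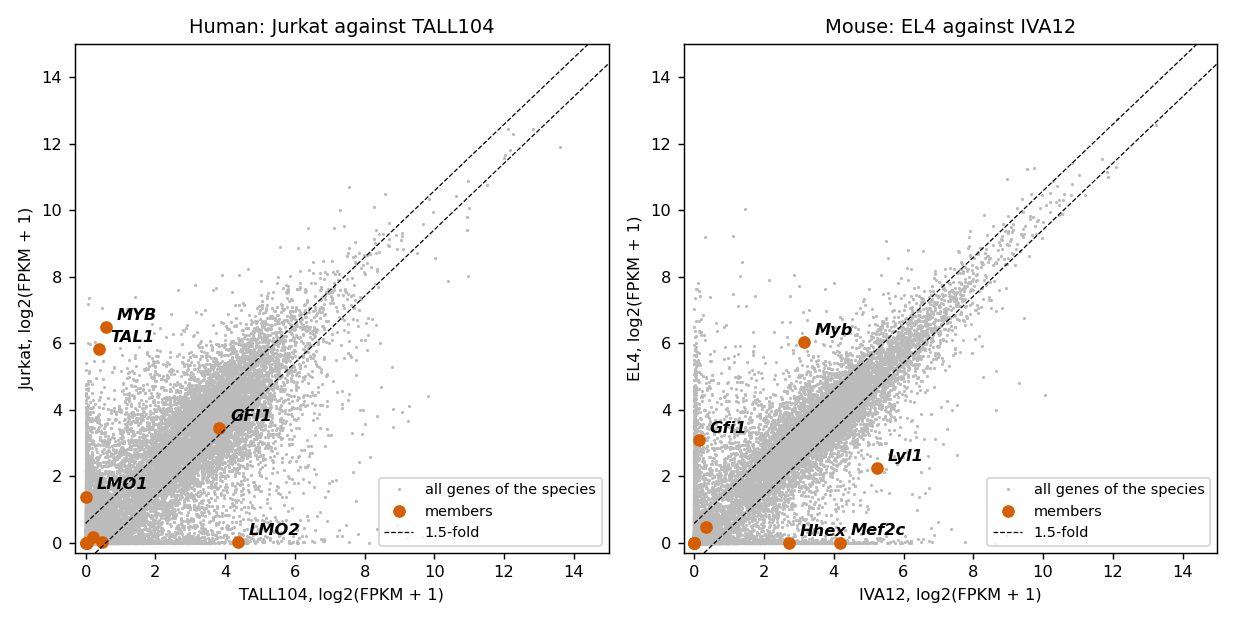
All genes of a species (grey) and the members (orange) by log2(FPKM + 1), Jurkat against TALL104 (left) and EL4 against IVA12 (right), with dashed lines at 1.5-fold. MYB and TAL1 stand far above the diagonal at 88.8 and 55.9 FPKM in Jurkat, GFI1 lies inside the lines, and LMO2, Hhex and Mef2c lie along the lower edge.

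The upstream windows of the 3 members higher in Jurkat are shown so that the letters at their start sites can be read beside the levels that follow. They are the 250 bases before a start site, 5′ to 3′ on the gene's own strand, from RefSeq's GRCh38.p14 table. That table held windows for 9 of the 10 members, all but LMO2. The 3 shown contain no annotated exon. Each was found once in GRCh37, at chr1:47698008-47698257 (minus strand) for TAL1, chr11:8290335-8290584 (minus strand) for LMO1 and chr6:135502196-135502445 (plus strand) for MYB. Capitals mark matches on either strand to 3 motifs: CAGNTG for the E-box of bHLH dimers, GATAA for GATA factors and AACNG for MYB. No capitals overlap between motifs here.
TAL1: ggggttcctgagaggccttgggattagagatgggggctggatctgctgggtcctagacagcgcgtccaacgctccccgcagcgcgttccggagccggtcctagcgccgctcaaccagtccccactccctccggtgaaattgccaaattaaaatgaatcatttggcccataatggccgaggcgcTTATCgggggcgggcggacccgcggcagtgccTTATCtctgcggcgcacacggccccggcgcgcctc
LMO1: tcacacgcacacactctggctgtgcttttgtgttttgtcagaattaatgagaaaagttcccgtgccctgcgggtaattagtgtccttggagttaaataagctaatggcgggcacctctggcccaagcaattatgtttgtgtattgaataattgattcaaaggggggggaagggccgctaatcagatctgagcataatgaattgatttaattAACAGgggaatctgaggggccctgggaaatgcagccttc
MYB: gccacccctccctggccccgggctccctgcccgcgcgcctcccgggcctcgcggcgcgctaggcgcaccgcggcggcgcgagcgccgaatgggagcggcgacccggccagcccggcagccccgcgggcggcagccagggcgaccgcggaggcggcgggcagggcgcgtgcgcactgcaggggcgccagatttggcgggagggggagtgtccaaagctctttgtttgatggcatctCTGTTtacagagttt

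The TAL1 window, at the most upstream start of that gene in the table, held 2 GATAA matches and no match to the other motifs. The other TAL1 window of the table, at chr1:47697388-47697637 in GRCh37 and also free of annotated exons, held 2 AACNG matches and no match to the other motifs. GATAA occurs in 20.4% of the 35116 human windows of this length. The LMO1 and MYB windows held 1 AACNG match each, a motif found in 70.6% of windows, and no GATAA. None of the 3 windows held CAGNTG, which 42.5% of windows do. Their GC contents were 64.8% for TAL1, 45.6% for LMO1 and 75.6% for MYB. These are matches of letters, and the libraries did not measure binding.

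TAL1 (ENSG00000162367, hg19 chr1:47681962-47697897, minus strand) drives the erythroid and megakaryocytic programme in normal blood. It stood at 55.9 FPKM in Jurkat (11087 reads, 54.8 to 56.9) and at 0.309 FPKM in TALL104 (50 reads, 0.229 to 0.408). The Jurkat level was above that of 97.9% of human genes, and the TALL104 level above 61.4%. Here and below such shares include genes listed at 0, so a level below 1 FPKM can still exceed that of most genes. The log2 ratio was 5.44 on the FPKM + 1 scale, and the ratio of FPKM itself was 181 (137 to 244). Jurkat was thus the single line of the 4 with TAL1 at 1 FPKM or more, since mouse Tal1 was listed at 0 in EL4 and in IVA12, where 3 reads would have given 0.0213 and 0.0271 FPKM. The markers of the lineage that normally uses TAL1 were low in Jurkat: its 5 erythroid markers summed to 0.260 FPKM, with HBB and ALAS2 at 0.

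LYL1 (ENSG00000104903, hg19 chr19:13209847-13213975, minus strand), the closest relative of TAL1 among the members, was below 1 FPKM in both human lines. It had 3 reads in Jurkat (0.0277 FPKM, 0.00570 to 0.0808) and 35 in TALL104 (0.396 FPKM, 0.276 to 0.551). On the FPKM + 1 scale this was within 1.5-fold (log2 ratio -0.44), while the FPKM of TALL104 was 14.3 times that of Jurkat, with a counting interval of 4.51 to 72.8. The mouse gene was expressed in both lines. Lyl1 (ENSMUSG00000034041, mm10 chr8:84701457-84704715, plus strand) stood at 3.75 FPKM in EL4 (217 reads, 3.27 to 4.28) and 36.7 FPKM in IVA12 (1671 reads, 35.0 to 38.5). IVA12 was higher by 9.79-fold (8.49 to 11.3), a log2 ratio of -2.99 for EL4 over IVA12. Its level in IVA12 was above that of 94.3% of mouse genes. Lyl1 lies within the span of Nfix, which is on the opposite strand and had 5.43 FPKM in EL4 and 0.516 in IVA12, the reverse order. Whether strand was used in counting is not given in the sources used here, so reads of the overlap cannot be assigned with certainty.

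The LIM-only genes split between the human lines. LMO2 (ENSG00000135363, hg19 chr11:33880122-33913623, minus strand), a bridge between TAL1 or LYL1 dimers and LDB1, had 1 read in Jurkat (0.00925 FPKM, 0.000234 to 0.0515), below the highest level of a mouse member in that library, 0.0141 FPKM. In TALL104 it had 1721 reads (19.5 FPKM, 18.6 to 20.5), above 92.6% of human genes. The log2 ratio was -4.35, and the ratio of FPKM, resting on that 1 read, was 2112 with an interval of 379 to 83460. LMO1 (ENSG00000166407, hg19 chr11:8245856-8290263, minus strand) had the opposite order, at 1.62 FPKM in Jurkat (0.973 to 2.52) and listed at 0 in TALL104. The Jurkat value corresponded to 19 reads or a multiple of them, since the shortest length that gave whole reads was 338 bases. On that account its interval may be too wide. The log2 ratio was 1.39, and the Jurkat level was 5.16 times the 0.313 FPKM that 3 reads would have given in TALL104. The counting limit of 0 reads in TALL104 was 0.385 FPKM, above that floor, so 5.16 is not a lower bound.

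So Jurkat held the TAL1 and LMO1 messages and TALL104 the LMO2 message, with neither bHLH member at 1 FPKM in TALL104. In mouse, Lmo1 was listed at 0 in both lines. Lmo2 had 27 reads in EL4 (0.388 FPKM, 0.256 to 0.564) and 14 in IVA12 (0.256 FPKM, 0.140 to 0.429). Their ratio was 1.52 with an interval of 0.768 to 3.13, so no difference in Lmo2 was detectable at this depth. The Lyl1 message of IVA12 thus stood beside an Lmo2 level below 1 FPKM.

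The homeobox members were low in all 4 lines apart from Hhex in IVA12. TLX1, which is turned on in leukaemia by translocation next to T-cell receptor genes, was listed at 0 in all of them. For the human gene 3 reads would have given 0.0328 FPKM in Jurkat and 0.0403 in TALL104. TLX3 had 1 read, in TALL104 (0.0236 FPKM, where mouse members reached 0.0259), and was listed at 0 in the other 3. HHEX, a regulator of blood progenitors, had 10 reads in each human line, or 0.120 FPKM (0.0578 to 0.222) for Jurkat and 0.148 (0.0709 to 0.272) for TALL104. The ratio interval of 0.304 to 2.18 included no difference. Mouse Hhex (ENSMUSG00000024986, mm10 chr19:37434810-37440731, plus strand) was listed at 0 in EL4 and stood at 5.51 FPKM in IVA12 (267 reads, 4.86 to 6.21). The IVA12 level was 113 times the 0.0487 FPKM that 3 reads would have given in EL4, with a log2 ratio of -2.70. The counting limit of 0 reads in EL4 was 0.0598 FPKM, above that floor, so 113 is not a lower bound.

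MYB was the member with the highest level in Jurkat and in EL4. The human gene (ENSG00000118513, hg19 chr6:135502446-135540311, plus strand) stood at 88.8 FPKM in Jurkat (16943 reads, 87.5 to 90.1) and 0.508 FPKM in TALL104 (79 reads, 0.402 to 0.633). Jurkat was higher by a log2 ratio of 5.90 and a ratio of FPKM of 175 (140 to 221). The mouse gene (ENSMUSG00000019982, mm10 chr10:21124935-21160984, minus strand) stood at 64.2 FPKM in EL4 (8449 reads, 62.9 to 65.6) and 7.80 in IVA12 (807 reads, 7.27 to 8.36). EL4 was higher by a log2 ratio of 2.89 and a ratio of 8.23 (7.66 to 8.86). MYB thus stood above 98.9% of human genes in Jurkat and 63.7% in TALL104, and above 97.1% of mouse genes in EL4 and 79.7% in IVA12. Division genes moved with MYB in the human pair. In a list of 5 added after the data were seen, MKI67, TOP2A, CDK1, CCNB1 and PCNA, all 5 were higher in Jurkat, and their FPKM summed to 657 in Jurkat and 132 in TALL104. In mouse the sums were 704 in EL4 and 565 in IVA12, with 2 of 5 past 1.5-fold. The paper describes TALL-104 as harder to culture than the other lines, with limited viability and slow growth. The part of cell division or of culture state in the MYB levels was not tested.

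GFI1, which with its partner KDM1A represses genes in lymphocytes and granulocytes, was the one member detected in both human lines. The human gene (ENSG00000162676, hg19 chr1:92938600-92952482, minus strand) stood at 9.96 FPKM in Jurkat (1144 reads, 9.39 to 10.6) and 13.3 FPKM in TALL104 (1241 reads, 12.5 to 14.0). TALL104 was 1.33-fold higher (1.23 to 1.44), which is more than counting error and within the 1.5-fold limit (log2 ratio -0.38). The mouse gene (ENSMUSG00000029275, mm10 chr5:107716657-107726036, minus strand) separated its lines. It stood at 7.45 FPKM in EL4 (777 reads, 6.93 to 7.99) and 0.0975 in IVA12 (8 reads, 0.0421 to 0.192), a log2 ratio of 2.94 and a ratio of FPKM of 76.4 (38.6 to 178). The 3 T-cell lines therefore had GFI1 between 7.45 and 13.3 FPKM, and the B-lineage line had 8 reads.

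MEF2C showed the reverse layout. It had 1 read in each human line (0.00318 FPKM in Jurkat and 0.00390 in TALL104) and 2 reads in EL4 (0.00396 FPKM). All 3 values were below those that members of the other species reached in the same library, 0.0141 FPKM in Jurkat, 0.0259 in TALL104 and 0.0170 in EL4. In IVA12 Mef2c (ENSMUSG00000005583, mm10 chr13:83504034-83667080, plus strand) had 6735 reads, 16.9 FPKM (16.5 to 17.4), above 87.8% of mouse genes. The log2 ratio of EL4 over IVA12 was -4.16, and the ratio of FPKM of IVA12 to EL4 was 4281, with an interval of 1185 to 35360 that is wide because EL4 had 2 reads. The antisense genes MEF2C-AS1 and MEF2C-AS2, which overlap the human gene, were listed at 0 in every library. Antisense genes also overlap TAL1 (6 reads in Jurkat, 0 in TALL104) and MYB (MYB-AS1, 1 read in each human line).

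Genes that work with the members were read from 7 lists holding 63 genes. Past 1.5-fold were 41 of the 63 human genes, 26 of them toward Jurkat and 15 toward TALL104. Of the mouse genes 25 were, 15 toward EL4 and 10 toward IVA12. Their median log2 ratios were 0.06 and 0.00, beside 0 for all genes. These lists hold widely expressed genes, and the backgrounds of 25.3% and 21.0% include genes listed at 0, so the shares of 65.1% and 39.7% are not set against them.

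The E proteins, the dimer partners of TAL1 and LYL1, were higher in Jurkat for 2 of 3 genes. TCF3 was at 37.5 FPKM in Jurkat and 8.27 in TALL104, and TCF12 at 46.3 and 11.1. In mouse, Tcf4 was the 1 of 3 past 1.5-fold, at 0.00341 FPKM in EL4 and 11.5 in IVA12, while Tcf3 was at 19.1 and 23.7. So each line with a bHLH member above 1 FPKM also had an E protein message above 10 FPKM, as did TALL104 with TCF12. Of the 4 ID inhibitors, ID1 was at 15.7 FPKM in Jurkat and 0.143 in TALL104, and ID2, the ID gene of cytotoxic lymphocytes, ran the other way at 2.46 and 126. Of the human ID genes 2 were higher in Jurkat and 1 in TALL104. In mouse both calls were toward EL4, where Id2 was at 30.8 FPKM against 1.46 in IVA12, and Id3 at 6.62 against 1.52.

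Among 11 partners of the LMO-bHLH complex, 5 were higher in Jurkat and 2 in TALL104. RUNX1, a factor found with TAL1 on DNA, was at 36.1 FPKM in Jurkat and 6.60 in TALL104, and LDB1, the LMO-binding scaffold, at 23.9 and 48.9. GATA3, named after its values were seen, was level at 15.1 and 14.4 FPKM, and GATA1 and GATA2 were below 1 FPKM in both lines. In mouse 4 partners were higher in EL4 and 1 in IVA12. Gata3, the T-cell GATA factor, was at 25.7 FPKM in EL4 and 0.0199 in IVA12, where Gata1 was at 0.0162 and Gata2 at 0. Cbfb, the partner of RUNX factors, was at 66.5 and 31.1 FPKM. The Lyl1 message of IVA12 was therefore present with no GATA factor of the list at 1 FPKM.

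**Figure D3:**
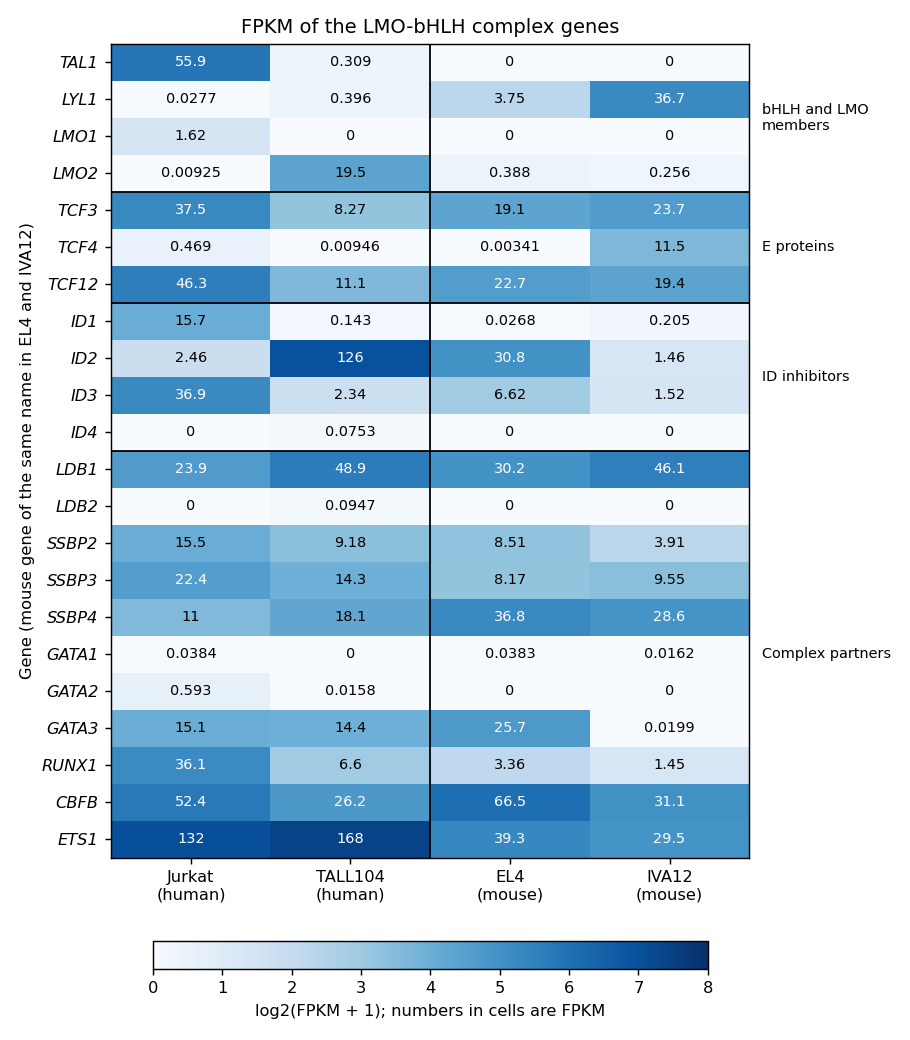
FPKM (numbers) and log2(FPKM + 1) (colour) of the bHLH and LMO members, the E proteins, the ID inhibitors and the complex partners in the 4 lines, with mouse genes in the last pair of columns. TAL1 is dark in Jurkat, LMO2 in TALL104 and Lyl1 in IVA12, while LDB1 lies between 23.9 and 48.9 FPKM in all 4 lines.

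The TAL1 circuit list holds genes tied to TAL1 in T-cell leukaemia in different ways, among them activated targets, genes of factors it works with, PTCRA, a target of the E proteins, and STIL, its genomic neighbour. Of its 9 human genes 5 were higher in Jurkat and 3 were higher in TALL104, with a median log2 ratio of 1.10. ALDH1A2, a retinoic acid enzyme that TAL1 switches on in leukaemia, was at 26.4 FPKM in Jurkat and 0.0491 in TALL104. KIT, the stem cell factor receptor, had the reverse order at 0.336 FPKM in Jurkat and 325.5 in TALL104, so the list did not move as a whole with TAL1. In the mouse lines, both with Tal1 at 0, 4 of 9 were higher in EL4 and none in IVA12. Trib2, a pseudokinase gene, was at 11.1 FPKM in EL4 and 0.00922 in IVA12, whereas Aldh1a2 was at or below 0.0699 FPKM in both.

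**Figure D4:**
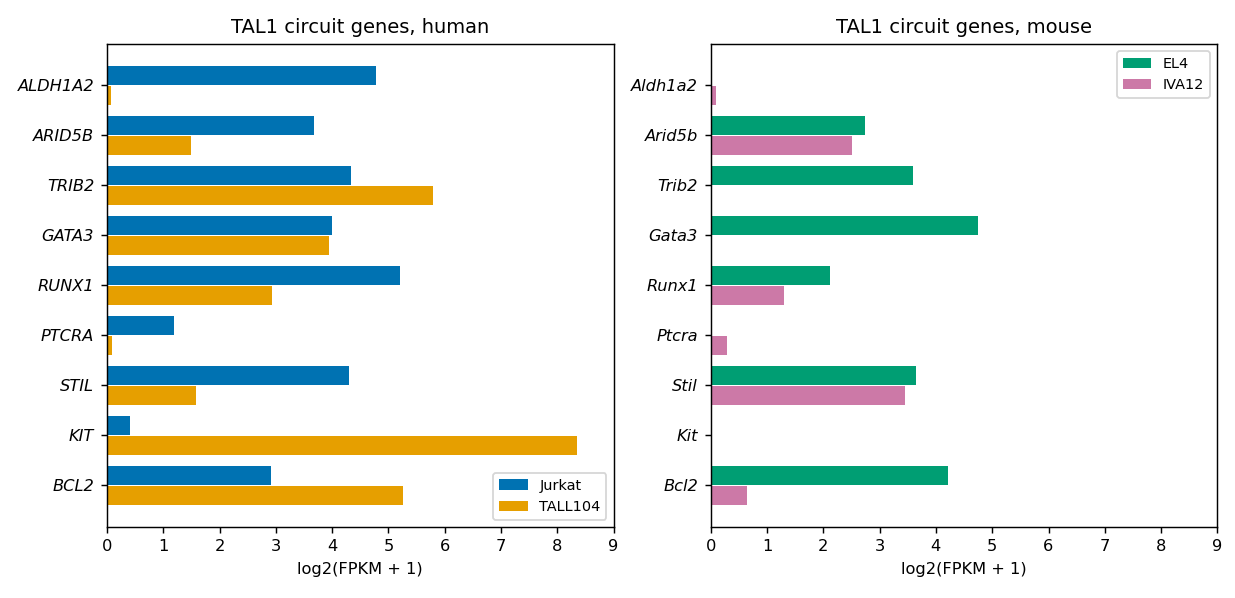
Levels of 9 TAL1 circuit genes as log2(FPKM + 1) in the human lines (left) and the mouse lines (right), 1 bar per library from 0. ALDH1A2 and STIL are longer for Jurkat, KIT, BCL2 and TRIB2 for TALL104, and in mouse Gata3 and Trib2 have a visible bar for EL4 alone.

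Among 10 relatives of the members, 2 were higher in Jurkat and 4 in TALL104. MYBL2, the MYB relative of dividing cells, was at 87.2 FPKM in Jurkat and 3.37 in TALL104, and MEF2D at 4.44 and 11.9. The mouse relatives had 2 calls, both toward IVA12, with Mef2b at 0.0464 and 0.855 FPKM and Lmo4 at 7.03 and 12.6. Mybl2, unlike Myb, was within 1.5-fold in mouse at 17.6 and 15.3 FPKM. Of 11 cofactors of GFI1, MYB and MEF2C, 6 were higher in Jurkat and 4 in TALL104. KDM1A, the demethylase that GFI1 recruits, was at 65.5 and 17.5 FPKM, and CREBBP, the acetyltransferase that MYB binds, at 5.45 and 19.7. The mouse cofactors stayed closer, with 8 of 11 within 1.5-fold, and Rcor1 at 20.4 and 10.2 FPKM and Crebbp at 1.99 and 4.14 at the ends.

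Of 17 other transcription factor oncogenes of T-cell leukaemia, 5 were higher in Jurkat and 1 in TALL104. HOXA5 was at 4.58 FPKM in Jurkat and listed at 0 in TALL104, and MYC, a driver of cell growth, was at 96.8 and 20.4 FPKM. In mouse 5 were higher in EL4 and 5 in IVA12. Spi1, the gene of the factor PU.1 in B cells and myeloid cells, was at 0.0115 FPKM in EL4 and 18.0 in IVA12. Bcl11b, which T cells need, ran the other way at 13.3 and 0.0195. The IVA12 levels of Mef2c and Hhex thus came with Spi1 above 10 FPKM, and the Gfi1 level of EL4 with Bcl11b above 10.

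For members at 10 FPKM or more in a line, the nearest protein-coding gene on each side was compared. STIL, 17914 bases from TAL1, was also higher in Jurkat, at 18.8 FPKM (18.2 to 19.3) against 1.99 (1.81 to 2.20) in TALL104. PDZK1IP1, 25246 bases off on the other side, had 1 read in Jurkat and none in TALL104. The log2 ratio of STIL was 2.72, below the 5.44 of TAL1. The genes beside MYB went opposite ways in human, with HBS1L at 14.8 and 3.70 FPKM and AHI1 at 4.94 and 10.4. In mouse, Ahi1, 44506 bases from Myb, followed it at 15.7 FPKM in EL4 and 0.924 in IVA12, a log2 ratio of 3.12 beside the 2.89 of Myb, and Hbs1l was at 29.4 and 24.4. The genes flanking LMO2 also went opposite ways, with FBXO3 at 2.40 and 5.42 FPKM and CAPRIN1 at 93.5 and 39.5. Those flanking GFI1, RPAP2 and EVI5, were within 1.5-fold. Beside Lyl1, Trmt1 was at 9.84 FPKM in EL4 and 13.9 in IVA12 and G430095P16Rik at 3.49 and 1.70. Beside Mef2c, Tmem161b was at 12.0 and 12.1 FPKM and Cetn3 at 113 and 83.8. Of the 12 genes flanking the 6 called members, STIL, FBXO3, HBS1L and Ahi1 were past 1.5-fold in the direction of their member, 3 were past it the other way and 5 were within it. Nfix, which overlaps Lyl1 and had the reverse order, is not among the 12. Over all genes, the share past 1.5-fold in a given direction was 13.8% or 11.4% in human and 9.75% or 11.2% in mouse. Those shares include genes without reads, so they are no fair base for these 12 genes, and an excess was not tested.

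**Figure D5:**
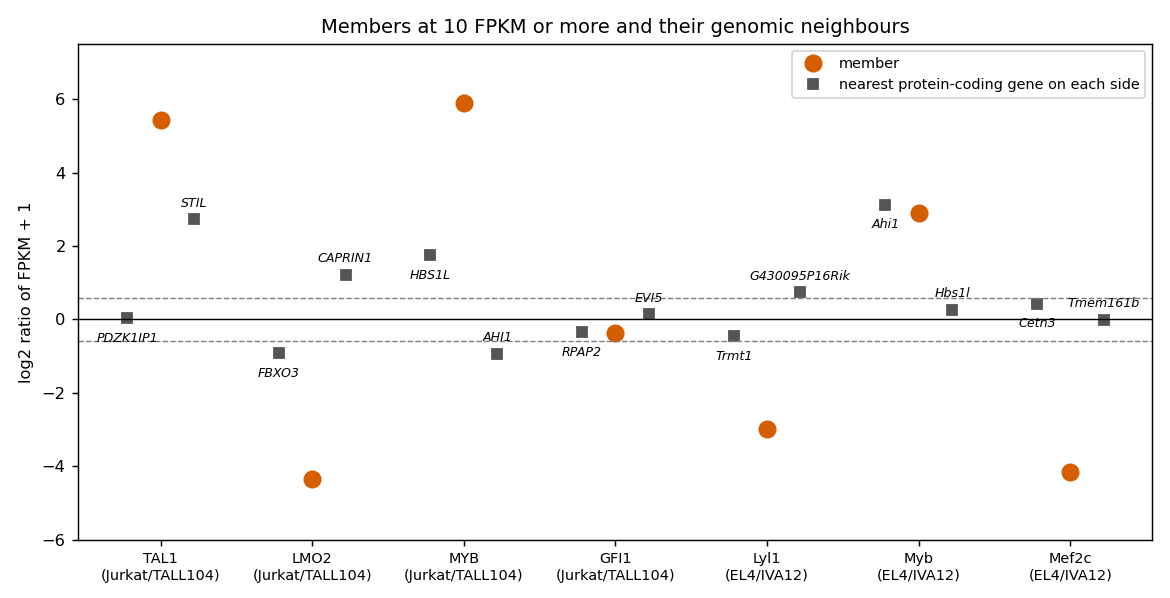
Log2 ratio of FPKM + 1 (Jurkat over TALL104, or EL4 over IVA12) of the 7 members at 10 FPKM or more (circles) and of the nearest protein-coding gene on each side (squares), with dashed lines at 1.5-fold. Ahi1 at 3.12 lies beside Myb at 2.89, while the squares beside LMO2, Lyl1 and Mef2c lie far from their circles.

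Genes with the most similar levels over the 4 libraries were sought among 15549 symbols shared by the species, by the Euclidean distance of log2(FPKM + 1). This was done for the 6 members of which a human or mouse gene reached 10 FPKM. With 4 points it is a description of levels. The nearest to TAL1 was TSPAN7 (distance 0.22), at 64.1 FPKM in Jurkat, 0.216 in TALL104 and 0 in both mouse lines. Next came CTSG, which was not on the myeloid marker list, and PI16, at 42.9 and 41.9 FPKM in Jurkat. ACCS, AK1 and MAF were nearest to LMO2, with MAF at 25.2 FPKM in TALL104 and below 0.4 FPKM in the other 3. Of these 6, MEF2C had the closest matches, PLA2G5, FCRLA and ST14 at distances of 0.05 to 0.06, all between 17.3 and 17.6 FPKM in IVA12. MEF2C stood near 0 in the other 3 libraries, as many genes do, so small distances are easily reached. COX6A2, ACY1 and SFN were nearest to LYL1, and UGDH, KCNA3 and SPRED2 to GFI1. MYB, above 0.5 FPKM in all 4 libraries, had no gene so near. CDCA7L was at a distance of 1.58, highest in Jurkat, with 37.6 FPKM for EL4, 13.2 for IVA12 and 1.39 for TALL104, and CD28 and SLC29A1 followed beyond 2.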

How the data were processed

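RNA of 4 lines was made into stranded TruSeq mRNA libraries. The authors aligned reads with STAR 2.5.1b to a combined hg19 and mm10 reference, counted them with featureCounts 1.6.3 and deposited 1 table of FPKM values. The strand setting and gene lengths of the counting are not given in the sources used here, nor whether reads or read pairs were counted. If both reads of a pair were counted, they are not independent and the intervals are too narrow. Groups were the line names in the labels, 1 library each, and ratios and calls were taken only between the lines of a species. Some levels were also read side by side across species, and genes of similar level were sought over all 4 libraries. There, human and mouse genes were matched by symbol, and their lengths and annotations differ. Reads were recovered from the FPKM steps with the annotated exon length (GENCODE) where that gave whole reads to 1e-10, otherwise with the shortest length that did, so a count may be too small and its interval too wide. Ratios used FPKM + 1, as fold changes that understate low genes, with a call past 1.5-fold. Ratio intervals are exact conditional binomial intervals, and a line at 0 was set to a floor of 3 reads. The steps were tested on simulated data. SciPy 1.17.1, pandas 2.3.3 and NumPy 2.4.6 were run under Python 3.11.15. The members and lists were chosen with earlier results of these data known. Named were all members, the 2 genes of each list with the largest ratio per pair, the genes flanking members at 10 FPKM or more and the 3 nearest in level, and a few others where stated or where a member result turned on them. Some genes of the lists are not reported here and were left out of their counts. Other pseudocounts, scalings, thresholds and detection limits were tried.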

Additional observations from a re-analysis of the deposited data

Results flagged for a closer look

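Because the reference held both genomes, each library also had values for members of the other species, which entered no comparison between lines. Of these, 4 exceeded 3 reads. In IVA12, a mouse line, human TAL1 was listed at 0.0485 FPKM (7 reads), human MYB at 0.0793 FPKM (11 reads) and human MEF2C at 0.0393 FPKM (9 reads). In Jurkat, a human line, mouse Mef2c was listed at 0.00732 FPKM (4 reads). Genes of the other species held 0.175% of all FPKM in IVA12, against 0.0379% in EL4, 0.0474% in Jurkat and 0.0457% in TALL104. The cause was not tested. Own-species values of LMO2 in Jurkat, TLX3 in TALL104, MEF2C in both human lines and Mef2c in EL4 lay below the highest member of the other species in the same library, which was 0.0141 FPKM in Jurkat, 0.0259 in TALL104 and 0.0170 in EL4.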

How the results depend on the processing

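The 4 human and 5 mouse members past 1.5-fold kept their direction under every scaling and limit tried. A lower pseudocount added LYL1 (0.1 FPKM, 5 members) and then TLX3 (0.01 FPKM, 6 members), both toward TALL104. The count of detected members depended on the limit: at any FPKM above 0 it was 8 in Jurkat, 8 in TALL104 and 5 in EL4, and at 0.1 FPKM it was 6 in TALL104. At 5 FPKM it was 3 in Jurkat, where LMO1 at 1.62 FPKM was lost. That limit left 2 in EL4, where Lyl1 at 3.75 FPKM was lost, 2 in TALL104 and 4 in IVA12. Of 100 member log2 ratios under 5 alternatives, 28 moved, 26 of them under a lower pseudocount and 2 under another scaling, and no ratio past 1.5-fold changed sign. Median scaling multiplied the FPKM of TALL104 by 1.08, as did leaving out mitochondrially encoded genes. Under the 3 scalings no member's log2 ratio shifted by more than 0.11, the shift of LMO2. No paired analysis was possible because each line had 1 library. Ratios that rest on 1 to 3 reads in a line have wide counting intervals, and with 1 read in each line, as for MEF2C in human, no direction could be read at this depth.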
